A study of Mus musculus with 6 samples.

Results

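The subject is a set of 10 transcription regulators that build the heart in the embryo and remain in use in adult heart muscle, read in the hearts of sham-operated mice. The members were chosen by name: the zinc-finger proteins Gata4 and Gata6, the homeodomain protein Nkx2-5, the T-box proteins Tbx5 and Tbx20, the basic helix-loop-helix protein Hand2, the MADS-box proteins Mef2a, Mef2c and Mef2d, and the coactivator Myocd. All 10 were found among the 17447 rows of the count table. RNA from the heart was sequenced in 6 libraries of wild-type mice, 3 from mice with chronic kidney disease (CKD) after subtotal nephrectomy and 3 from sham-operated mice. In the CKD mice the poles of the left kidney were cut away and the right kidney was taken out 7 days later, while in the sham mice the kidneys were exposed and left whole. The sources used here do not give strain, age, the time from surgery to collection or the part of the heart taken, and the labels do not state that libraries of a group come from separate animals.

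In the embryo these proteins act as a network. GATA, NKX2-5, T-box, HAND and MEF2 proteins bind neighbouring sites in the enhancers of heart genes and contact each other, and myocardin works through serum response factor, a DNA-binding partner that it activates. Loss of any of several of them stops or deforms heart development in the mouse, and in the adult the same factors keep up transcription of the contractile and electrical genes.

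The row labels were checked first. Pairs of CKD columns had a Spearman rho of 0.984 to 0.987 over the whole table, pairs of sham columns one of 0.982 to 0.985, and the 9 mixed pairs one of -0.0586 to -0.0528. Such a rho is taken across genes, and genes do not replicate each other. In the rows of the 10 factors, the median percentile of the count within its column was 22.5 in the CKD columns and 89.3 in the sham columns. Of these rows, 7 averaged under 10 counts in the CKD columns and 0 did in the sham columns. Mef2a held 0, 0 and 0 counts in the CKD columns, against 2778, 2529 and 3173 in the sham columns. The rows of heart muscle genes showed the same: the 15 ventricular myocyte markers had a median percentile of 40.6 in the CKD columns and 99.9 in the sham columns. Within the CKD columns the values thus follow each other but not the row labels, so no CKD value is read as the level of a factor and no comparison of CKD with sham was made. Everything that follows describes the 3 sham hearts, named sham 1, 2 and 3.

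The sham columns held 10480788, 10474487 and 12669724 counts. Levels are in CPM, the count divided by the total of its column and multiplied by 1000000. With 1 group there is no contrast to test, so levels and spreads are given as a description. In sham hearts the labels and the values fitted each other: all 15 ventricular myocyte markers passed 10 CPM, and Myh6, the adult myosin heavy chain, averaged 38127 ± 3906 CPM (SD, n = 3). Of 30 factors that direct other lineages, 15 were in the table, 7 of these had 0 counts in every sham heart, and 2 averaged at least 1 CPM. Those were Sox10, a neural crest and glial factor, with 46, 13 and 19 counts, and Trp63, an epithelial factor, with 6, 12 and 18 counts. Myog, the skeletal muscle factor myogenin, had 0 counts in each heart. A true level of up to 0.286 CPM could give that count in the shallowest sham column (3 counts, counting error only).

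All 10 cardiac factors averaged at least 10 CPM. Together they summed to 1268, 1220 and 1166 CPM in sham 1, 2 and 3. The sum had a coefficient of variation (CV, the SD over the mean) of 4.18% between hearts.

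**Figure D1:**
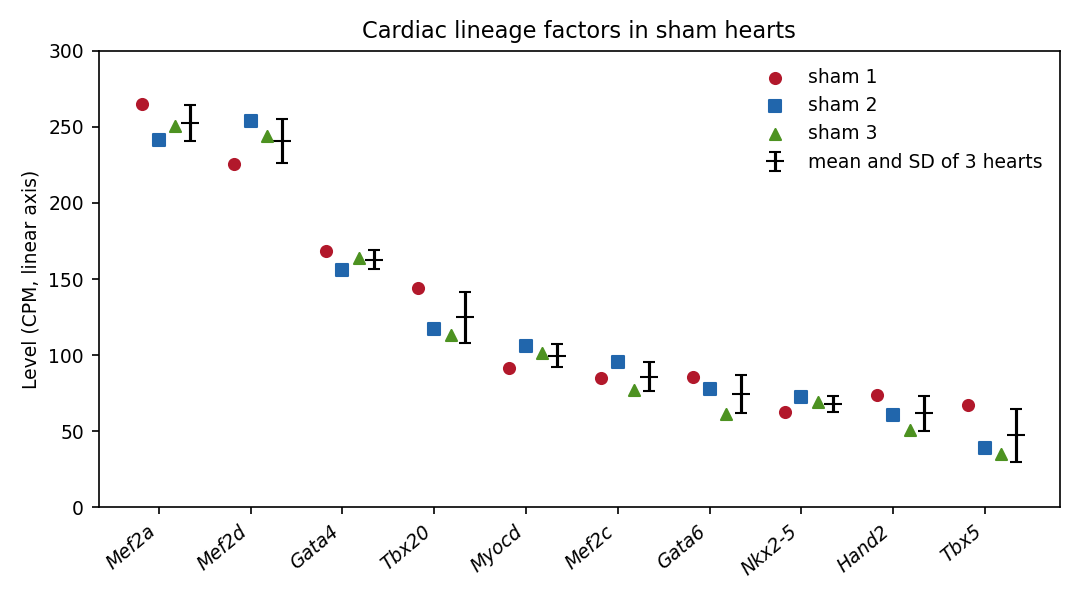
Level of each of the 10 factors in CPM on a linear axis, with 1 symbol for each sham heart and the mean and SD of the 3 hearts in black. Mef2a and Mef2d lie above 220 CPM in every heart, and Tbx5 shows sham 1 apart from the other hearts.

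Gata4 and Gata6 are GATA zinc-finger proteins that switch on contractile and natriuretic peptide genes, and Gata4 is needed in the adult mouse heart for the hypertrophic response to pressure load. Gata4 had 168, 156 and 164 CPM in sham 1, 2 and 3, from 1762, 1632 and 2078 counts. Its CV of 3.85% was the lowest of the set in CPM, where counting error alone gives 2.35%. That place and that excess depended on the scaling and on single hearts. Gata6 had 85.5, 77.4 and 61.1 CPM, highest in sham 1 and lowest in sham 3, with a CV of 16.7%. Gata6 therefore took 33.7%, 33.2% and 27.1% of the summed Gata4 and Gata6 counts. The 95% Wilson interval in sham 3 was 25.5% to 28.8%, below the intervals of 31.9% to 35.5% in sham 1 and 31.4% to 35.1% in sham 2 (these intervals cover counting error only). Such a share is formed within a heart and does not depend on how the hearts are scaled to each other.

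Nkx2-5, the homeodomain factor of early heart progenitors and later of the conduction system and myocytes, had 62.4, 72.7 and 69.1 CPM in sham 1, 2 and 3. The lowest heart was sham 1 and the CV was 7.65%, against 3.63% from counting error.

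The T-box genes differed in how steady they were. Tbx5, which acts with Nkx2-5 and Gata4 in septation, the atria and the conduction system, had 67.5, 39.2 and 35.0 CPM. Sham 1 was thus high and the other hearts lay close together, and the ratio of the highest to the lowest heart was 1.93. The CV was 37.4%, the widest of the 10, but 8.14% without sham 1. Tbx20, a T-box factor needed for the maintenance of adult mouse cardiomyocytes, had 144, 117 and 113 CPM. It was also highest in sham 1, with a CV of 13.4% and of 2.39% without sham 1. Tbx5 took 31.9% of the summed Tbx5 and Tbx20 counts in sham 1 (95% Wilson interval 30% to 33.8%), 25.1% in sham 2 (23.0% to 27.2%) and 23.6% in sham 3 (21.7% to 25.5%). The share in sham 1 thus lay above the other hearts by more than counting error, while sham 2 and sham 3 overlapped.

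Hand2, a basic helix-loop-helix factor of the right ventricle, the outflow tract and the epicardium in the mouse embryo, had 73.7, 60.9 and 50.7 CPM in sham 1, 2 and 3. Its CV was 18.7%, where counting error gives 3.84%. Its RefSeq promoter is shown because, of the factor promoters searched here, it is the only one that holds AGATAA. It is also the only one of them that holds the variant TGATAA, and GATA proteins bind both. Not every factor had a promoter in that search. The sequence is on assembly GRCm38.p6, chr8:57320733-57321032, plus strand, from 250 bases before the start to 50 after it.
Hand2: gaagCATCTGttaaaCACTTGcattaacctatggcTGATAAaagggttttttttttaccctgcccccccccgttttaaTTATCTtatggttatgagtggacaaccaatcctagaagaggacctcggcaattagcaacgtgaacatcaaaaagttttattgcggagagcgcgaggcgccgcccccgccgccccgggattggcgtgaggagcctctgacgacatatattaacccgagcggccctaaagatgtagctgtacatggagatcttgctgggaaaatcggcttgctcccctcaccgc
Capitals mark every match, on either strand, to the GATA letters AGATAA and their variant TGATAA, to the NKX2-5 letters CAAGTG, to the T-box letters AGGTGT, to the E-box CANNTG, and to the MEF2 and serum response factor (CArG) consensus. Every CAAGTG is also an E-box. The GATA letters begin 215 and 172 bases before the start. The E-boxes begin 246 and 235 bases before it, and the match at 235 holds CAAGTG on the minus strand.

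Mef2a, Mef2c and Mef2d are MADS-box proteins held in check by class II histone deacetylases and released by calcium and stress signals. Mef2a had 265, 241 and 250 CPM in sham 1, 2 and 3, with a CV of 4.72%. Its exons overlap those of Lysmd4 on the opposite strand, and reads of overlapping genes cannot be told apart here, which also holds for antisense genes at Mef2d, Hand2 and Gata6. Mef2d had 225, 254 and 244 CPM with a CV of 5.96%, and was lowest in the heart where Mef2a was highest. Mef2c, the family member that acts earliest in the embryonic heart, had 84.9, 95.7 and 77.1 CPM with a CV of 10.8%. As a share of the summed counts of these genes, Mef2a made up 46.1%, 40.9% and 43.8%, Mef2d 39.2%, 42.9% and 42.7%, and Mef2c 14.8%, 16.2% and 13.5%. The Wilson intervals of Mef2a did not overlap between sham 1 (44.8% to 47.3%) and sham 2 (39.7% to 42.1%). The counts are not corrected for gene length, so these shares compare hearts and not genes.

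The RefSeq promoter of Mef2a is shown because it carries the binding consensus of its own protein family. It lies on assembly GRCm38.p6 at chr7:67372809-67373108, minus strand, with capitals as above.
Mef2a: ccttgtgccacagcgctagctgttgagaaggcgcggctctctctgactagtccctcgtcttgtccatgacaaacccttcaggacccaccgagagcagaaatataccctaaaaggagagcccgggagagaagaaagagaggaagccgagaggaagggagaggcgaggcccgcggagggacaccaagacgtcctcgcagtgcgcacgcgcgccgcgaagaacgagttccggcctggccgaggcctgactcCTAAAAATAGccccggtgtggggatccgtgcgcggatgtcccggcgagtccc
The match to the MEF2 consensus begins 2 bases before the start. The share of all 32851 RefSeq mouse promoters of this length with a match was 3.19% for MEF2, 11.2% for AGATAA, 9.05% for TGATAA, 13.6% for CAAGTG, 13.7% for AGGTGT, 72.3% for CANNTG and 1.63% for CArG. Promoters on 1 chromosome were left out of the search among the factors. Of the 10 factors, 6 had a promoter among the rest. These have 8 promoters there, 3 of them of Mef2c. Of the 8 promoters, 1 had a MEF2 match, 1 had each of the GATA matches, 2 had CAAGTG, 1 had AGGTGT, 4 had an E-box and 0 had CArG. These are matches of letters, and no binding was measured.

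**Figure D2:**
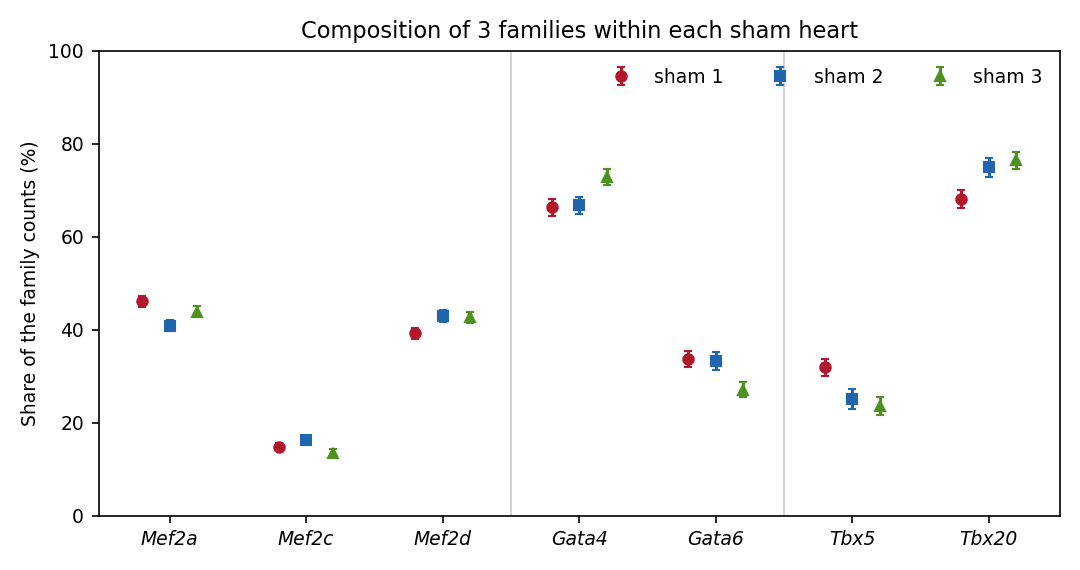
Share of each gene, in percent on the vertical axis, of the summed counts of its family members among the 10 factors, for each sham heart, with 95% Wilson intervals that cover counting error. Gata6 is lower in sham 3 and Tbx5 higher in sham 1 than in the other hearts by more than these intervals.

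Myocd, or myocardin, the muscle-restricted coactivator of serum response factor, had 91.3, 106 and 102 CPM in sham 1, 2 and 3. Its CV was 7.46%, against 3.00% from counting error, and sham 1 was the lowest heart as for Nkx2-5 and Mef2d.

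To set the levels of different factors beside each other, they were divided by length, as CPM per kilobase of the longest protein-coding transcript in GENCODE M21. On that scale Gata4 (47.8 ± 1.84), Mef2a (45.6 ± 2.15), Nkx2-5 (44.6 ± 3.41) and Mef2d (44.6 ± 2.66) led, and neighbours in that order had overlapping heart ranges (SD, n = 3 for each value). Hand2 (26.3 ± 4.90) came next and lay below them in every heart, followed by Gata6 (23.1 ± 3.84) and Myocd (19.5 ± 1.45), whose ranges overlapped with their neighbour above. Tbx20 (13.7 ± 1.85) lay below the range of Myocd, and Mef2c (13.7 ± 1.48) and Tbx5 (12.0 ± 4.48) overlapped with it. The median over the 16854 rows with a length was 3.37 CPM per kilobase, and the 10 factors stood between the 74.5th and the 92.5th percentile. The order depends on the length used. Per kilobase of coding sequence 1 of 10 kept its place, and Mef2a (169), Mef2d (156) and Gata4 (123) led. With all exons of each gene joined 3 kept it, Mef2a stood at 17.2 and Gata4 led at 41.7. The longest transcripts ran from 1525 bases for Nkx2-5 to 9091 bases for Tbx20.

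Within each family the cardiac members stood above their paralogues per length. Gata2, a blood and endothelial factor, was the only other GATA row above 1 CPM per kilobase, at 5.82. Gata1 had 0 counts in each heart, Gata3 had 14, 18 and 4, and Gata5 had 24, 0 and 18. Nkx2-5 was the only NKX2 row with more than 1 count in any heart: Nkx2-1 and Nkx2-2 had 0 throughout and Nkx2-9 had 0, 0 and 1. Hand1, the left ventricular partner of Hand2 in the mouse embryo, had 0, 0 and 1 counts. Mef2b had 0 counts in every heart. Of the myocardin-related factors, which sense actin dynamics, Mrtfb stood at 5.10 and Mrtfa at 2.80 CPM per kilobase, below Myocd at 19.5.

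Among T-box rows, Tbx3 (5.11 CPM per kilobase), a conduction system repressor, and Tbx2 (2.72), its close relative, followed Tbx20 and Tbx5. Tbx18, a factor of the epicardium and sinus node, had 79, 69 and 41 counts in sham 1, 2 and 3. Tbx1 had 22, 8 and 12, Tbx15 had 18, 7 and 17, Tbx6 had 10, 13 and 10, and Tbx4, Tbx21, Eomes and Tbr1 had at most 5 counts in a heart. Of 7 T-box rows with a mean of at least 1 CPM, 7 were highest in sham 1, the members Tbx5 and Tbx20 among them, where 37.0% of all 12491 rows at that level were highest in that heart. Of these 7 rows, 4 lay under 10 CPM, and Tbx15 had 18 counts in sham 1 against 17 in sham 3. Tbx6, with a mean of 0.995 CPM, fell just short of 1 CPM and was highest in sham 2. The count was 7 of 7 under each of the 6 other scalings tried. Rows listed for these families but not found in the table were not analysed here.

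**Figure D3:**
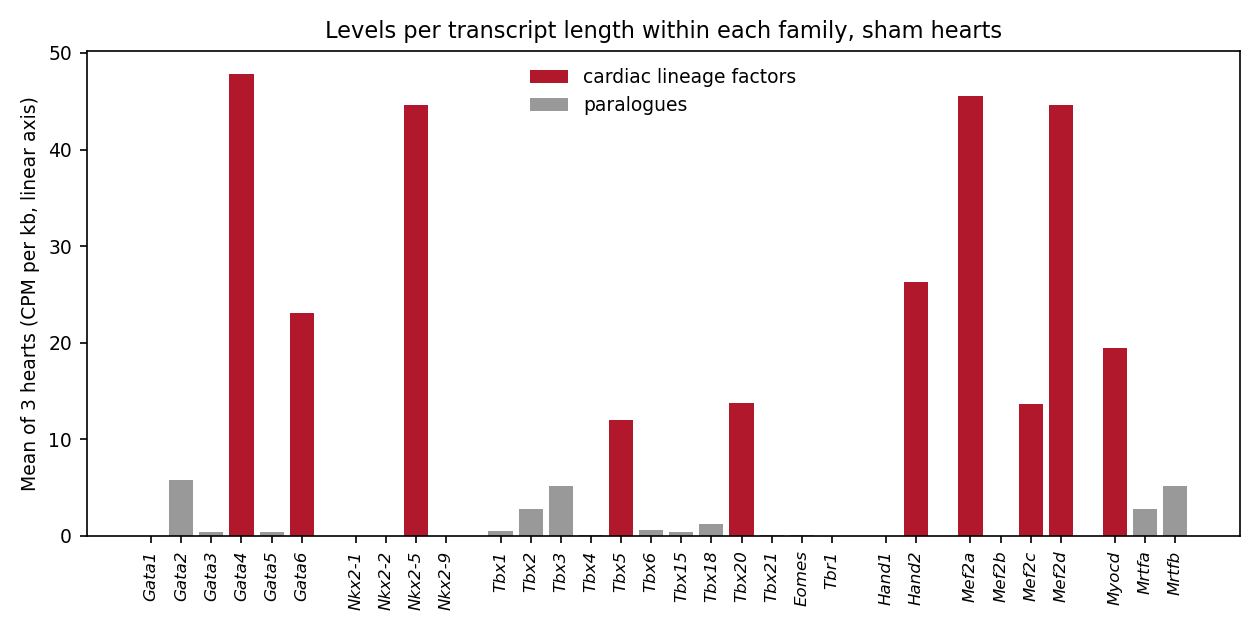
Mean level of 3 sham hearts in CPM per kilobase of the longest protein-coding transcript, on a linear axis, for each GATA, NKX2, T-box, HAND, MEF2 and myocardin family row in the table. Red bars are the 10 cardiac factors and grey bars their paralogues, of which Gata2 at 5.82 is the highest.

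The steadiness of the set was read against all 8864 rows with a mean of at least 10 CPM. The median CV of the 10 factors was 9.24%, and that of all these rows 9.32%. Of the 10 factors, 5 were below the median of all rows (Gata4, Mef2a, Mef2d, Myocd and Nkx2-5) and 5 above it (Mef2c, Tbx20, Gata6, Hand2 and Tbx5). Tbx5 was the 1 factor at 30% or more, where 5.86% of all rows were. In rank among all these rows the CVs ran from the 12.6th percentile for Gata4 to the 96.2nd for Tbx5. Against rows within 2-fold of its own level, Gata4 stood at the 19.5th percentile and Tbx5 at the 96.7th, and again 5 of 10 factors were below the median. In CPM the CV of each factor exceeded what counting error gives, by the least for Gata4. The median CV of rows within 2-fold of a factor's level ran from 7.11% for Gata4 to 8.71% for Tbx5. The median of the set thus lay beside that of all rows at 10 CPM or more but above each of those for rows of like level. Single factors lay far to either side of it.

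The scaling moved these counts. With TMM factors the median CV was 11.8% for the factors and 9.57% for all rows. With TMM, DESeq2 or upper-quartile factors 3 factors instead of 5 were below the median (Gata4, Mef2a and Mef2d). With the edgeR dispersion, which removes counting error and also uses TMM factors, 2 were (Gata4 and Mef2a). The median dispersion, as a biological CV, was 11.1% for the factors and 7.98% for all rows. The CV of Gata4 fell below the 2.35% of counting error with TMM (1.62%), with DESeq2 size factors (1.91%) and with totals that leave out the 100 highest rows (2.21%), and was 2.44% with upper-quartile factors. Scaled to the summed ventricular myocyte markers it was 9.36%, and 4 factors then had a lower CV: Mef2d (4.31%), Nkx2-5 (5.23%), Myocd (5.62%) and Mef2c (5.90%). An excess of the spread of Gata4 over counting error is thus not a stable result. Single hearts weighed on several CVs, which then rest on the other 2 hearts. Without sham 1 the CV was 3.58% for Nkx2-5, 2.59% for Mef2a, 2.85% for Mef2d and 2.69% for Myocd. These and Tbx20 then lay below Gata4 at 3.63%. Without sham 2 it was 1.75% for Gata4 and 6.81% for Mef2c, and without sham 3 it was 7% for Gata6.

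**Figure D4:**
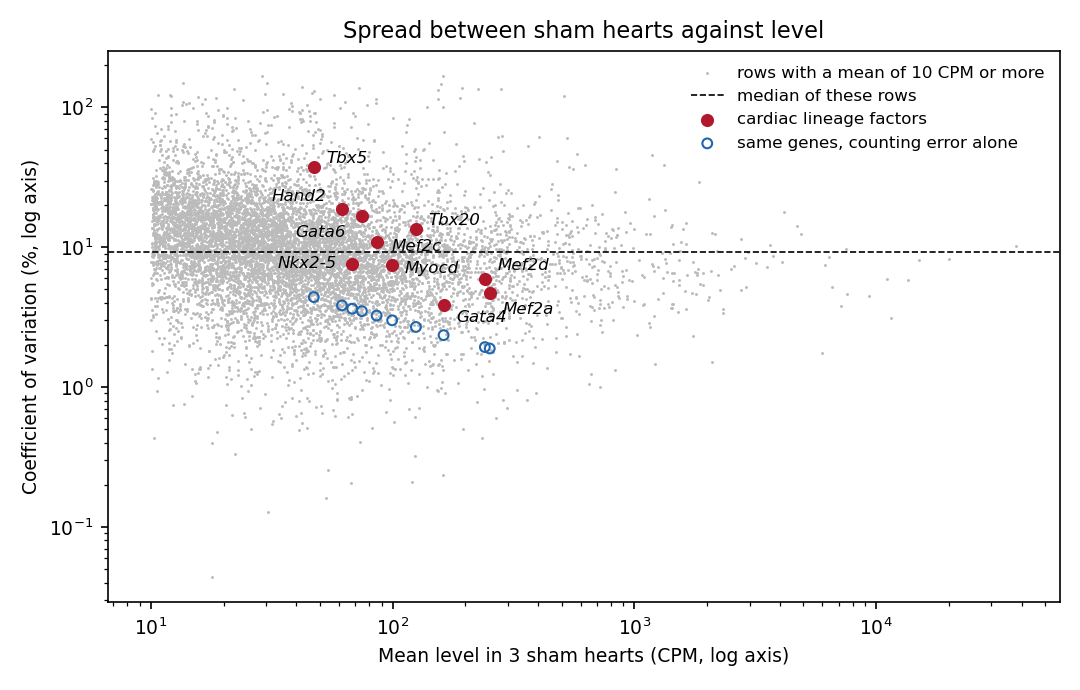
CV between the 3 sham hearts in percent against mean CPM, both on log axes, for all 8864 rows with at least 10 CPM (grey), with the 10 factors in red and the CV that counting error alone gives for them as open circles. The factors lie on both sides of the dashed median of 9.32%, from Gata4 at 3.85% to Tbx5 at 37.4%.

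The factors did not vary in the same hearts. Tbx5, Hand2, Gata6 and Tbx20 were highest in sham 1, then sham 2, then sham 3, an order found in 14.8% of rows with at least 10 CPM. Nkx2-5, Mef2d and Myocd were highest in sham 2, then sham 3, then sham 1, an order found in 12.1%. In CPM, Gata4 and Mef2a were highest in sham 1 and lowest in sham 2, and Mef2c was highest in sham 2 and lowest in sham 3. With TMM, DESeq2 or upper-quartile factors, Gata4 and Mef2a were lowest in sham 3 instead, the order of Tbx5, Hand2, Gata6 and Tbx20. Sham 1 was the highest heart for 6 factors and for 37.0% of all rows. The counts were 4 factors and 23.4% of rows for sham 2, and 0 factors and 39.6% of rows for sham 3. These groups were formed after the values were seen. In counting terms the order of close hearts is not certain: the log2 ratio of sham 2 to sham 3 was 0.05 for Tbx20 (95% counting interval -0.06 to 0.16) and 0.05 for Myocd (-0.06 to 0.17). It was -0.07 for Gata4 (-0.17 to 0.02) and -0.05 for Mef2a (-0.13 to 0.02). The ratio of sham 1 to sham 3 was 0.95 for Tbx5 (0.78 to 1.12), 0.54 for Hand2 (0.39 to 0.69) and 0.48 for Gata6 (0.35 to 0.62), which placed them at the 99.3rd, 97.9th and 97.2nd percentile of all rows.

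Ratios between factors within a heart do not depend on scaling, and they followed these groups in part. The ratios use the same counts that formed the groups, so they are no separate evidence for them. Over the 45 pairs the median CV of the ratio was 15.7%. Nkx2-5 over Myocd gave 0.683, 0.687 and 0.679 in counts, a CV of 0.631%, and Gata4 over Mef2a gave 0.634, 0.645 and 0.655, a CV of 1.60%. Those spreads are smaller than the 4.73% and 3.02% of counting error, so they cannot be told from a constant ratio, and they are the lowest of many pairs. Among the 4 factors that ran from sham 1 down to sham 3, the CV of the ratio was 4.58% for Gata6 over Hand2, 8.41% for Tbx20 over Hand2 and 10.2% for Gata6 over Tbx20. The ratios with Tbx5 were wider than the median of all pairs even there, at 19.4% for Tbx5 over Hand2, 21.7% for Gata6 over Tbx5 and 23.1% for Tbx5 over Tbx20. Tbx20 was also steadier against Mef2a (9.36%), which had another order of hearts in CPM, than against Gata6. At the other end, Tbx5 over Myocd gave 0.739, 0.371 and 0.344, a CV of 45.5%. Of the 9 pairs with the widest spread, 6 held Tbx5.

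Cell type markers moved between the same hearts. In bulk tissue, fewer cells of a type and less RNA per cell cannot be told apart. The 14 atrial markers summed to 0.317%, 0.0553% and 0.0971% of the counts in sham 1, 2 and 3. Of 13 with at least 1 CPM, 10 were highest in sham 1. The atrial light chain Myl7 had 5207, 15 and 1032 counts and Myl4 had 6000, 25 and 1269. Other markers went another way: Kcnk3 and Angpt1 were highest in sham 2 and Gja5 in sham 3. Kcnk3 had 356, 371 and 336 CPM and was the highest marker of the list in sham 2, so it weighs heavily on the sum there. Dhrs9 was near 0, with 0, 0 and 1. Tbx5, Hand2, Gata6, Tbx20, Gata4 and Mef2a shared sham 1 as the highest heart with these markers. In CPM 2 of these factors, Gata4 and Mef2a, were lowest in sham 2, as were 10 of the 13 markers. Of all rows with at least 10 CPM, 37.0% were highest in sham 1 and 45.6% lowest in sham 2. With TMM, DESeq2 or upper-quartile factors Gata4 and Mef2a were lowest in sham 3. The 15 ventricular myocyte markers summed to 13.6%, 15% and 13.5%, and 14 of 15 were highest in sham 2, as were Nkx2-5, Mef2c, Mef2d and Myocd. Scaled to the sum of these markers, Nkx2-5, Mef2d and Myocd were highest in sham 3 in place of sham 2, and Tbx5 stayed highest in sham 1 at 69.6, 36.6 and 36.2 on the rescaled CPM scale.

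The 15 fibroblast markers summed to 0.452%, 0.256% and 0.493% of the counts, and 13 of 15 were lowest in sham 2. Of all rows with at least 10 CPM, 45.6% were lowest in sham 2, against 28.2% in sham 1 and 26.2% in sham 3. The 16 endothelial markers summed to 0.273%, 0.259% and 0.307%, with 12 lowest in sham 2. The 13 mural cell markers summed to 0.458%, 0.463% and 0.472%, with 9 lowest in sham 2. Des, or desmin, which is also abundant in cardiac myocytes, made up 61.9%, 62.0% and 55.5% of that sum, and the other 12 summed to 0.174%, 0.176% and 0.210%. Smooth muscle genes of the list varied more, with 66.6, 45.7 and 140 CPM for the myosin Myh11 and 52, 3 and 143 counts for the calponin Cnn1. The 15 macrophage markers summed to 0.0638%, 0.0509% and 0.0837%, with 14 of the 14 at 1 CPM or more highest in sham 3. The 12 mesothelial markers were low, at 0.00417%, 0.00204% and 0.00242%. Of 7 with at least 1 CPM, 5 were highest in sham 1 and 5 were lowest in sham 2. Upk3b had 92, 1 and 34 counts and Msln 46, 1 and 23, while Wt1 had 62, 47 and 68 and Aldh1a2, highest in sham 2, had 37, 92 and 54. The 11 lymphocyte markers summed to at most 0.000782%. Of 9 erythroid markers, 6 reached 1 CPM and those 6 were highest in sham 3. The 12 skeletal muscle markers summed to 0.340%, 0.336% and 0.365% of the counts. Of these, Ckm, which is also on the ventricular list, averaged 2890 CPM and Acta1 578 CPM. Myh1, Myh2, Myh4 and Myog of the list had 0 counts in all hearts. The part of any of these cell types in the levels of the factors was not tested.

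**Figure D5:**
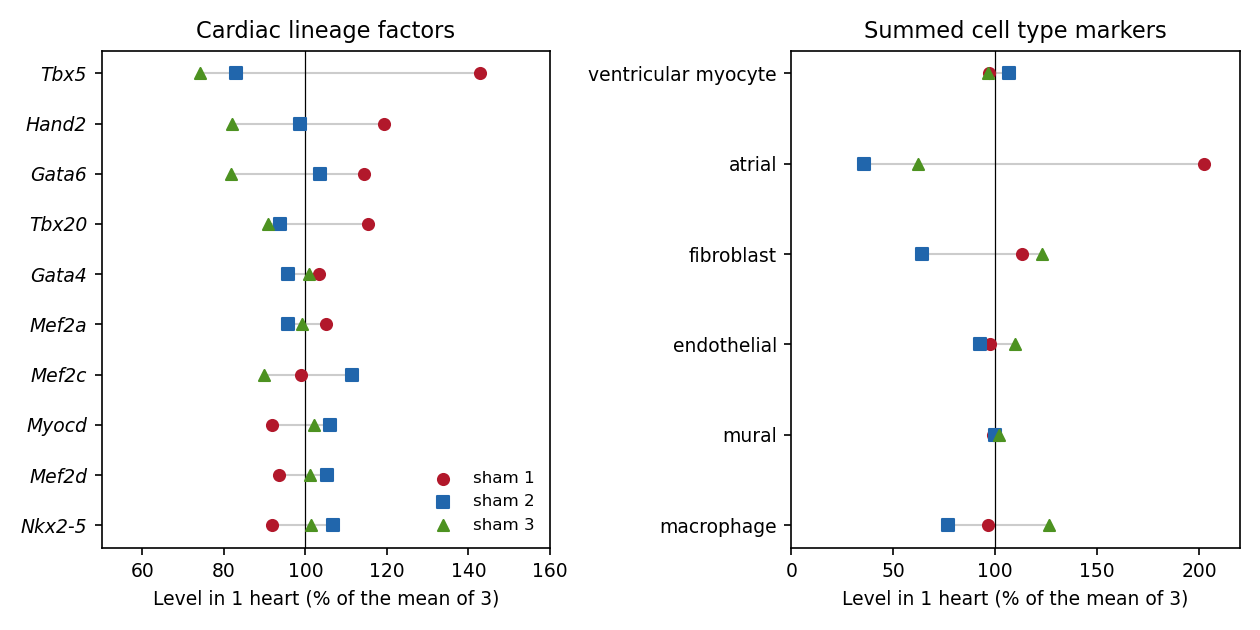
Level in each sham heart as a percentage of the mean of the 3 hearts, for each of the 10 factors (left) and for the summed counts of 6 cell type marker lists (right), on linear axes of different range. Tbx5 reaches 143% in sham 1 and the atrial list 203%, while Nkx2-5, Mef2d and Myocd lie between 91.7% and 107%.

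Partners and further regulators were read from a list of 30 names, of which 29 were in the table and 24 passed 10 CPM. Their median CV was 8.92%, and 13 of the 24 were below the median of all rows. The 6 with the highest mean CPM, which is not corrected for length, are given first. Smyd1, a muscle methyltransferase, averaged 722 ± 63.1 CPM, Tead1, a factor of the Hippo pathway, 282 ± 20.1, and Hopx, a homeodomain protein that lacks DNA binding and restrains serum response factor, 257 ± 17.1 (SD, n = 3 each). Srf itself averaged 146 ± 5.73 CPM with a CV of 3.93%, close to the 3.85% of Gata4. The stretch-responsive genes Ankrd1 and Csrp3 averaged 1329 ± 512 and 1167 ± 146 CPM. The widest spreads at 10 CPM or more were those of Ankrd1 (38.5%), of Nr2f2, an atrial and venous nuclear receptor (35.1%, with 189, 92 and 162 counts), and of Hey1, an atrial Notch target (32.0%, with 216, 176 and 133 counts). Isl1, a second heart field factor, had 0 counts in each heart.

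Target genes of the factors were read in the same hearts. Of 27 genes known to be bound or driven by members of the set, 27 were in the table and 26 passed 10 CPM, with a median CV of 12.2%, and 11 of the 26 were below the median of all rows. The list shares 9 genes with the ventricular, 3 with the atrial, 3 with the mural and 1 with the skeletal muscle markers, with Tagln and Acta2 among the mural ones. Those at 30% or more were Myl7 (138%), Nppa (121%), Tagln (69.5%), Acta2 (31.1%) and Nppb (30.4%). Nppa, the atrial natriuretic peptide and a target of Gata4, Nkx2-5 and Tbx5, had 12772, 675 and 3186 counts in sham 1, 2 and 3, highest in sham 1 like Tbx5. Gja5, a connexin driven by Tbx5 and Nkx2-5 in the mouse, had 129, 84 and 189 counts and was highest in sham 3.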

How the data were processed

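The authors deposited 1 table of whole-number counts, not normalized, with a row for each gene symbol and a column for each of 6 libraries. Column names equal the sample titles. Tools named per the submitters' processing notes are HISAT2, HTSeq, DESeq and Trimmomatic, with mouse build mm9. For versions, settings, strandedness and annotation nothing is stated in the sources used here. The members and gene lists were chosen with earlier results of these data known.

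CPM, SD and CV were computed from the sham counts and column totals in Python 3.11.15 with pandas 2.3.3, over hearts of equal weight. The counting CV assumes Poisson counts. A row needed a mean of 10 CPM to enter the background of spread. TMM and upper-quartile factors and an intercept-only dispersion fit without shrinkage came from edgeR 4.0.16, and size factors from DESeq2 1.42.0, in R 4.3.3. Both measures of spread were also run on simulated data, and the outcome is not reported here. Transcript lengths came from GENCODE M21 and promoters from RefSeq, both on GRCm38, and lengths were found for 16854 rows. No test between groups was planned or made.

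The named genes are all members, the 6 partners with the highest mean and the 3 with the highest CV, all paralogues, target genes at a CV of 30% or more, and other-lineage factors at 1 CPM or more. Other genes were chosen after their values were seen. On the opposite strand, Lysmd4 overlaps Mef2a (186, 235 and 311 counts in sham 1, 2 and 3), and without known strandedness their reads cannot be told apart. Antisense genes that overlap Gata6, Hand2 and Mef2d in GENCODE were not analysed here.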

Additional observations from a re-analysis of the deposited data

How the results depend on the processing

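No paired analysis was possible because the result comes from no test: the CKD columns do not follow the row labels, and the sham hearts are 1 group. All 10 factors stayed at 10 CPM or more under the 9 alternatives tried for that count. The number of factors with a CV below the median of all rows, 5 as reported, was 3 with TMM, 3 with DESeq2 size factors, 3 with upper-quartile factors and 2 with the edgeR dispersion, and 3 to 6 when 1 heart was left out. It was 4 with a filter of 50 CPM, 6 with one of 1 CPM, 7 with every row above 0 and 6 with the summed myocyte markers. It stayed at 5 with totals without the 100 highest rows, after thinning and against rows of like level. The median CV of the factors, 9.24%, was 3.61% without sham 1, 7.40% without sham 2 and 9.37% without sham 3. The median of all rows was then 7.9%, 7.37% and 7.79%, so the place of the set against all rows depended on single hearts. The median CV of the factors was 11.8% with TMM and 12.0% with DESeq2 size factors. Scaled to the summed ventricular myocyte markers, an alternative chosen after seeing the data, 1 factor was highest in sham 2 and 3 in sham 3. When 1 heart was left out, 6 to 7 factors were highest in sham 1, 4 to 8 in sham 2 and 2 to 3 in sham 3, which follows from dropping a heart, since another must then be highest. In the order per length 5 to 6 of 10 factors kept their place when 1 heart was left out, 1 with coding length and 3 with joined exons, also chosen after seeing the data. The mean of a factor cannot move by 1 SD when 1 of 3 hearts is dropped, so such settings say nothing about stability. Depth was 10474487 to 12669724 counts, and counting error alone was 1.89% to 4.40% of the level of a factor.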
